A study of Homo sapiens with 11 samples.

Results

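RT4 cells that had been exposed to nickel for 6 weeks and then grown without it for 2 weeks (Ni-washed-out, Ni-W) were compared with RT4 cells that were never exposed (untreated, UT). RT4 is a human cell line from a non-invasive papillary tumour of the urinary bladder, cultured here in McCoy's 5A medium with serum. The comparison rests on 4 of the 11 samples of the series, namely 2 Ni-W and 2 UT RNA-Seq libraries, which were taken by their sample titles and not by any measured value. Ni-W cells received 100 μM NiCl2 for 6 weeks and were then washed and kept in nickel-free medium for 2 weeks. The question asked of them was which transcripts still differed from never-exposed cells once the metal had been removed. A further 2 libraries of RT4 cells taken at the end of the same 6 weeks in 100 μM NiCl2 (nickel-exposed, Ni-E) entered the model and served as the reference for the state under nickel. The UT libraries are labelled as 6-week controls, and no untreated culture carried through the further 2 weeks is among the samples. Effects of the washout and of the added time in culture can therefore not be told apart. The other samples of the series are ChIP libraries of the bronchial line BEAS-2B and were not used here. In the treatment description, single colonies were picked for BEAS-2B cells, whereas for RT4 cells no cloning is described, and no replicate is said to be a single clone.

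The RT4 label was checked against the markers of the urothelium, the epithelium that lines the bladder. In the UT libraries, KRT19 was at 4697 and 5099 TPM (a level scaled for transcript length and library size), KRT7 at 4384 and 4779, GATA3 at 236 and 197, PPARG at 207 and 204, and UPK2 at 285 and 402. All 16 genes of the list of uroplakins and urothelial factors passed the filter on low counts. Among markers of other cell types, the leukocyte genes CD68 and ITGAM and the endothelial gene VWF had reads in UT cells. They were at 7.33 and 7.30, 4.94 and 3.71, and 1.88 and 0.91 TPM. Many others were near 0. The T cell marker CD3E, the B cell marker MS4A1, the fibroblast genes COL1A2, DCN and THY1 and the endothelial gene TEK were listed at 0 in all 6 libraries, and PTPRC, carried by all leukocytes, was at 0.04 TPM at most.

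Nickel ions displace iron from the 2-oxoglutarate-dependent dioxygenases, a family that includes the prolyl hydroxylases that mark hypoxia-inducible factor (HIF) for degradation and the JmjC histone demethylases, and nickel is known for switching on hypoxia genes in cells with normal oxygen. Interferons are secreted alarm proteins. They signal through receptors and the JAK kinases to a complex of STAT factors with IRF9, which binds the interferon-stimulated response element (ISRE) in promoters and switches on a large set of antiviral genes. Uroplakins and keratin 20 mark the most differentiated, superficial cells of the urothelium.

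Of 28252 genes listed, 14502 had enough reads to be tested. A gene was called when it changed at least 1.5-fold with a Benjamini-Hochberg adjusted p below 0.05 in edgeR's quasi-likelihood test with same-numbered replicates paired. In Ni-W cells, 840 genes were higher than in UT cells, 5.79% of those tested, and 403 were lower, 2.78%. Together they were 8.57%. In bulk RNA, fewer cells that express a gene and less RNA of it per cell cannot be told apart. At least a 2-fold change was seen for 482 of the higher and 203 of the lower genes, at least 4-fold for 185 and 54, and at least 16-fold for 43 and 8. On the scale of counts relative to library size (CPM), both Ni-W libraries lay above both UT libraries for 749 of the 840 and below them for 371 of the 403, where 15.1% of all tested genes lay entirely above and 14.1% entirely below. The median log2 fold change over all tested genes was −0.01, a value that the scaling of the libraries sets near 0.

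The calls depend on the pairing. Without the replicate as a block, 73 genes were higher and 14 lower (0.503% and 0.0965%), all of them among the genes called with it, and 1323 genes had an unadjusted p below 0.05. The replicates of each condition differed from each other far beyond counting noise, and the difference went with transcript length. In Ni-W cells, the median log2 difference of replicate 1 from replicate 2 was −0.52 among the shortest genes and 0.52 among the longest, with tested genes divided into 4 equal bins by length, and the other 2 conditions showed the same order with −0.38 to 0.32 in UT and −0.26 to 0.26 in Ni-E cells. The median Ni-W minus UT difference went from −0.08 to 0.09 over the same bins, and the share called higher from 4.41% to 7.50%. With the length trend of each library removed and the block kept, 754 of the 840 higher and 396 of the 403 lower genes were still called. With the trend removed and no block, 216 genes were higher and 67 lower, all shared with the calls above. Below, adjusted p-values are those of the paired model unless the unpaired one is named. The libraries held 17075833 to 27736454 estimated counts. The study describes 2 biological replicates per condition, and whether these were separate exposures is not given in the sources used here. The p-values of the paired model measure the spread left among these libraries once the common difference between replicate 1 and replicate 2 is taken out.

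**Figure D1:**
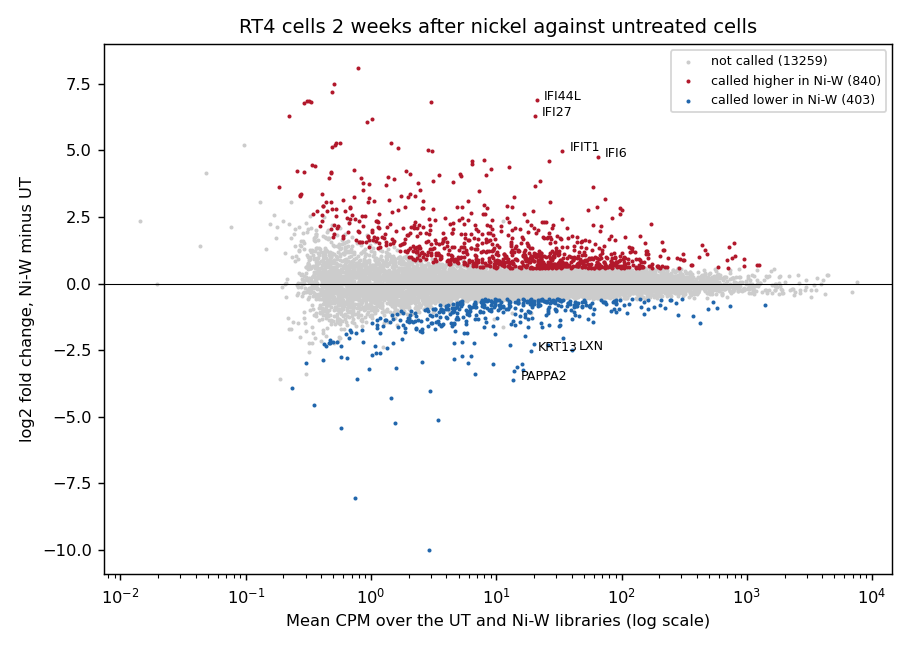
Log2 fold change of Ni-W over UT RT4 cells (vertical axis) against the mean level in CPM over the 4 libraries (horizontal axis, log scale), with 1 point per tested gene. Of the coloured points, the 840 higher genes (red) include 43 with a 16-fold or larger change and the 403 lower ones (blue) 8. The labelled interferon-stimulated genes had the largest rises among called genes that averaged 5 CPM or more without overlap of the groups.

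Among called genes that averaged 5 CPM or more, those of the interferon response took most of the largest rises. Called genes below that level, such as SLC2A3 and VSNL1, also had large fitted rises, from almost no reads in UT cells. By the rule used for naming genes, the 12 largest rises among called genes that averaged 5 CPM or more and whose UT and Ni-W libraries did not overlap were IFI44L, IFI27, IFIT1, IFI6, SAMD9L, TRABD2B, IFI44, IFITM1, RSAD2, KLHDC7B, HRH2 and PPP4R4. Of a list of 38 interferon-stimulated effectors, 37 were tested, 36 were higher in Ni-W cells and none was lower, where 5.79% of all tested genes were higher, and the median log2 fold change of the list was 2.30. The list was chosen with earlier results of these data known, so its count is a description.

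The promoters of these genes were searched for the ISRE, and 6 that hold it are shown. The list is made of genes known to answer to interferon, which acts through the ISRE. The share of the list with a match is therefore a description of the list and not a test of these data. Of the effectors among the largest rises, SAMD9L and RSAD2 held no match. The ISRE core was searched as GAAA, any 2 bases and GAAA again on both strands, from 250 bases before to 50 bases after the transcription start in the RefSeq promoter table for GRCh38.p14. Its letters were found for 21 of the 31 tested effectors that have an entry (67.7%), for 60 of 646 genes called higher (9.29%), for 6 of 310 called lower (1.94%) and for 318 of all 11444 tested genes with an entry (2.78%). Of all 27305 promoters in the table, 3.65% held it. In the sequences below, capitals mark the matches, and a match on the other strand reads TTTC, any 2 bases and TTTC. IFI44L (chr1:78620198-78620497, plus strand) holds 2 matches, IFI27 (chr14:94110486-94110785, plus strand) 2, IFIT1 (chr10:89392373-89392672, plus strand) 2, IFI6 (chr1:27672143-27672442, minus strand) 3, IFI44 (chr1:78649539-78649838, plus strand) 1 and ISG15 (chr1:1013247-1013546, plus strand) 2.
IFI44L: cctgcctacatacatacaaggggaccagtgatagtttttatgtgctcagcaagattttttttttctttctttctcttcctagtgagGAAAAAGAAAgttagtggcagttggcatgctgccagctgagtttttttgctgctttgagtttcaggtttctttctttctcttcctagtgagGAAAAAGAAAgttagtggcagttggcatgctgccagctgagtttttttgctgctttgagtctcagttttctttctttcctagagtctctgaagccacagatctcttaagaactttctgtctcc
IFI27: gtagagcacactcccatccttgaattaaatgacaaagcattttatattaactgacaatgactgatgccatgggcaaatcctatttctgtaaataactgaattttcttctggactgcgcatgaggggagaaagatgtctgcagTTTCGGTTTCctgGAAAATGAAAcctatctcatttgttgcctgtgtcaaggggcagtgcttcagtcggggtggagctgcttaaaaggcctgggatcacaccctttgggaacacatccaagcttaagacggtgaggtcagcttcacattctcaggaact
IFIT1: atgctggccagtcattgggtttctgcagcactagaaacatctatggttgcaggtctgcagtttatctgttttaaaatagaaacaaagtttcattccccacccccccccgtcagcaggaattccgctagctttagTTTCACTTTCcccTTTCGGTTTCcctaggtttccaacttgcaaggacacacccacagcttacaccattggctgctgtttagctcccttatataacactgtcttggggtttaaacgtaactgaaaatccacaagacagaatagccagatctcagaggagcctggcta
IFI6: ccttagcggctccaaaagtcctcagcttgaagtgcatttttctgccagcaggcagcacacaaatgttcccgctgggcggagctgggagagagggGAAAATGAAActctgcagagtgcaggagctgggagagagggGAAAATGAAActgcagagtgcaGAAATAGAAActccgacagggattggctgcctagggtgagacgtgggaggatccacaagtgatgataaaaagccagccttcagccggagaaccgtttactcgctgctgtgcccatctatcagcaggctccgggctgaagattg
IFI44: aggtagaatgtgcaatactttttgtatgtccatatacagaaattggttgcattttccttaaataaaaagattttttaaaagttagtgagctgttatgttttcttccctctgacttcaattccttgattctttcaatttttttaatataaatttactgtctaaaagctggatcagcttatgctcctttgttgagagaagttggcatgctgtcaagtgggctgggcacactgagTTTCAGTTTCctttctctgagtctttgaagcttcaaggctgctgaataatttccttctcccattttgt
ISG15: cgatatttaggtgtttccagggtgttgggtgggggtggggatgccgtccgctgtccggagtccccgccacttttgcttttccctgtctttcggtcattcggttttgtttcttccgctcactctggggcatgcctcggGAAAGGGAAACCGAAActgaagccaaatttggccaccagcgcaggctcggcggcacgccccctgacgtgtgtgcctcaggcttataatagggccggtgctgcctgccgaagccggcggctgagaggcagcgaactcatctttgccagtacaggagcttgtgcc
In ISG15 the 2 matches overlap. All ISRE matches printed lie upstream of the start, and they are matches of letters, not bound sites.

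IFI44L, an interferon-induced protein of uncertain biochemical role, was at 0.16 and 0.07 TPM in UT cells and at 15.7 and 11.1 TPM in Ni-W cells (log2 fold change 6.91 ± 0.25, SE; adjusted p = 2.04e-07). Its reads rose from 9 and 6 estimated counts to 754 and 1042. IFI27, a small mitochondrial and nuclear membrane protein, went from 3.74 and 1.79 TPM to 136.5 and 194 TPM (6.31 ± 0.29, adjusted p = 9.01e-07). Both genes were nearly silent in UT cells, and their groups lie more than an order of magnitude apart.

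IFIT1, which binds viral RNA that lacks the cap methylation of host messengers, was at 0.71 and 0.94 TPM in UT and at 29.6 and 26.5 TPM in Ni-W cells (4.99 ± 0.17, adjusted p = 2.03e-07). IFI6, a membrane protein that counters apoptosis, was already at 10.6 and 14 TPM and reached 347 and 349 TPM (4.75 ± 0.15, adjusted p = 1.9e-07). For both genes the Ni-W libraries lay close together and far above the UT libraries, with fitted folds of 31.8 for IFIT1 and 26.9 for IFI6. SAMD9L, a restriction factor that lowers protein synthesis in infected cells, rose from 0.28 and 0.09 to 5.34 and 3.31 TPM (4.66 ± 0.28). IFI44, the neighbour and paralog of IFI44L, rose from 2.65 and 2.88 to 77.1 and 55.2 TPM (4.60 ± 0.18). IFITM1, which blocks the entry of viruses at membranes, rose from 2.09 and 1.76 to 32.1 and 54.5 TPM (4.48 ± 0.32), though reads of the closely similar IFITM genes can be assigned to one another. RSAD2, or viperin, which makes a chain-terminating nucleotide, rose from 1.04 and 0.32 to 17.9 and 9.78 TPM (4.37 ± 0.26). All 8 of these genes were also called without the block, with adjusted p of 0.013 to 0.033.

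**Figure D2:**
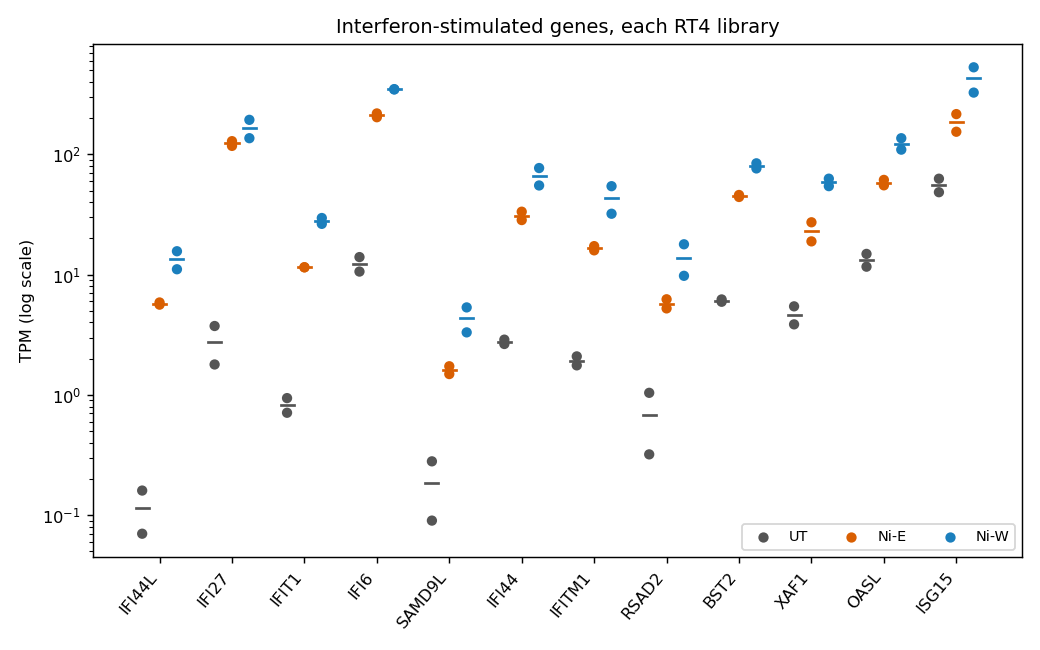
TPM of 12 interferon-stimulated genes in each RT4 library on a log axis, with 1 point per library and a line at the mean of each condition (UT grey, Ni-E orange, Ni-W blue). For every gene shown, both Ni-W libraries lie above both UT libraries, and for all but IFI27 the change from Ni-E to Ni-W passed the test.

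The remaining effectors filled the range below these. ISG15, a ubiquitin-like protein that is attached to other proteins, was at 48.5 and 62.8 TPM in UT cells and at 327 and 531 TPM in Ni-W cells (log2 fold change 2.87 ± 0.15, adjusted p = 1.7e-06). MX1, a GTPase that traps viral nucleocapsids, rose from 15.7 and 15.6 to 122.8 and 111.9 TPM (2.85 ± 0.12). BST2, or tetherin, which holds budding virions on the cell, rose from 5.95 and 6.22 to 76.5 and 84.3 TPM (3.67 ± 0.18). The 2′-5′ oligoadenylate synthetases, which start RNA decay through RNase L, rose less, by 1.02 ± 0.10 for OAS1, 1.55 ± 0.11 for OAS2 and 1.26 ± 0.09 for OAS3 on the log2 scale. The exception was LGALS3BP, a secreted glycoprotein, which was at 667 and 688 TPM in UT and 776 and 887 TPM in Ni-W cells (0.24 ± 0.11, adjusted p = 0.2). IFITM2 had too few reads to be tested.

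The same genes were looked at under nickel. Of the 37 tested effectors, 30 were called higher in Ni-E than in UT cells, with a median log2 fold change of 1.41, beside 7.64% of all tested genes. In the direct test of Ni-W against Ni-E cells, 29 of the 37 were higher after washout and none was lower, beside 2.72% of all tested genes higher and 1.80% lower, with a median difference of 0.90. MX1 was at 40.8 and 37.6 TPM in Ni-E cells, below both Ni-W libraries (Ni-W minus Ni-E 1.54 ± 0.12 on the log2 scale, adjusted p = 4.5e-05). MX2, its relative at the nuclear pore, stood at 11.3 and 10.98 TPM in UT, 20.3 and 17.6 in Ni-E and 61.2 and 46.7 in Ni-W cells (Ni-W minus Ni-E 1.46, adjusted p = 0.00012). PARP14, an ADP-ribosyltransferase, was not called under nickel, with 17.8 and 13.9 TPM in UT and 22.3 and 18.9 TPM in Ni-E cells, and was at 54.6 and 30.5 TPM in Ni-W cells (Ni-W minus Ni-E 0.95, adjusted p = 0.0013). IFI27 was among the effectors for which the test between Ni-E and Ni-W was not passed (0.39 ± 0.18, adjusted p = 0.3). Without the block, 18 of the 36 higher effectors were still called against UT.

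The machinery that senses nucleic acids and carries the interferon signal rose in part. Of 23 tested members, 10 were higher in Ni-W cells and none was lower (43.5% higher, beside 5.79% of all tested genes), with a median log2 fold change of 0.58. IRF9, the DNA-binding partner of the STAT factors, was at 25.2 and 35.1 TPM in UT and at 157 and 185 TPM in Ni-W cells (2.46 ± 0.13, adjusted p = 1.8e-06). DDX58, which encodes the RNA sensor RIG-I, rose from 4.22 and 3.66 to 23.1 and 14.9 TPM (2.19 ± 0.14), and IFIH1, the sensor MDA5 of long double-stranded RNA, from 7.61 and 4.98 to 29.0 and 16.1 TPM (1.76 ± 0.14). IRF7, the factor that amplifies type I interferon genes, rose from 2.81 and 2.34 to 9.23 and 12.7 TPM (2.06 ± 0.24). In all 4 genes, both Ni-W libraries lay above both UT libraries.

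STAT2 rose by 0.64 ± 0.10, IRF1 by 1.01 ± 0.11 and TLR3, which reads double-stranded RNA in endosomes, by 1.31 ± 0.23. Other members of the route did not pass the call rule. IRF3, the first responder downstream of the sensors, had a log2 fold change of −0.12 ± 0.12, the adaptor MAVS 0.03 ± 0.09, the DNA sensor CGAS 0.13 ± 0.13 and the kinase TYK2 0.01 ± 0.10. The receptor subunits IFNAR1 (0.44), IFNAR2 (0.38), IFNGR1 (0.57) and IFNGR2 (0.15) and the DNA-sensing adaptor TMEM173, or STING (0.50), were likewise not called. Against Ni-E cells, 6 of the 23 were higher in Ni-W cells and none was lower, beside 2.72% and 1.8% of all tested genes. IRF9 was among the 6, at 0.80. DDX58 was the member that was called without the block (adjusted p = 0.016).

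For the display of peptides on MHC class I, 5 of 13 tested genes were higher and none was lower (38.5% higher, beside 5.79% of all tested genes), with a median log2 fold change of 0.56, and none of the 5 was called without the block. HLA-F was at 1.93 and 2.01 TPM in UT and at 4.26 and 5.85 TPM in Ni-W cells (1.33 ± 0.28, adjusted p = 0.012). NLRC5, the transactivator of class I genes, rose by 0.87 ± 0.22 from 0.80 and 0.72 to 1.79 and 1.17 TPM. The peptide-trimming proteases ERAP2 and ERAP1 rose by 0.87 ± 0.15 and 0.60 ± 0.16. For ERAP1 the groups overlapped, with Ni-W replicate 2 at 15.1 TPM below UT replicate 1 at 25.4 TPM. The constant light chain B2M was at 1709 and 1396 TPM in UT and 2767 and 2022 TPM in Ni-W cells, a difference of 0.56 ± 0.09 that stayed under the 1.5-fold threshold (adjusted p = 0.0024). HLA-E and PSMB9 are listed at 0 in all libraries, and reads of HLA genes can be lost or shared among near-identical copies, so levels in this family are uncertain. The ISRE core letters were in 8 of the 11 promoters of this list that have an entry, beside 2.78% of those of all tested genes.

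Most tested chemokines and cytokines were higher in Ni-W cells. Of 18 tested members, 15 were higher and none was lower (83.3% higher, beside 5.79% of all tested genes), with a median log2 fold change of 1.63, and CCL28, CXCL16 and IL18 were not called. CCL5, which draws T cells and monocytes, was at 0.29 and 0.89 TPM in UT and at 9.59 and 12.3 TPM in Ni-W cells (4.07 ± 0.33, adjusted p = 2.7e-05). CXCL10 and CXCL11, interferon-induced ligands of the receptor CXCR3, rose from 5.72 and 4.52 to 79.5 and 70.6 TPM (3.84 ± 0.17) and from 0.79 and 0.33 to 6.08 and 6.20 TPM (3.53 ± 0.42). IL32, a cytokine of primates, rose from 7.03 and 8.69 to 41.9 and 57.5 TPM (2.63 ± 0.17). In these 4 genes the UT and Ni-W libraries do not overlap.

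Against Ni-E cells, members of this list went both ways. CXCL8, which attracts neutrophils, was at 25.6 and 18.9 TPM in UT, 135.6 and 115.8 in Ni-E and 93.6 and 48.4 in Ni-W cells, above UT by 1.69 ± 0.15 and below Ni-E by 0.86 (adjusted p = 0.005). CCL20 and CXCL1 stood higher after washout than under nickel, by 1.14 and 0.74. CXCL6 was at 2.17 and 1.36 TPM in UT and 1.57 and 1.32 TPM in Ni-E cells, and at 7.96 and 3.38 TPM in Ni-W cells (1.54 ± 0.29 against UT and 1.79 against Ni-E). IL1B and LIF, pro-inflammatory secreted factors, were above UT by 0.84 and 0.83 and below Ni-E by 0.72 and 0.79. In all, 5 of the 18 were higher and 3 lower in Ni-W than in Ni-E cells, beside 2.72% and 1.8% of all tested genes. CXCL10, CXCL8 and CSF1 were the members called without the block. CXCL2, CCL2, TNF and CSF3 were listed at 0 in all libraries.

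**Figure D3:**
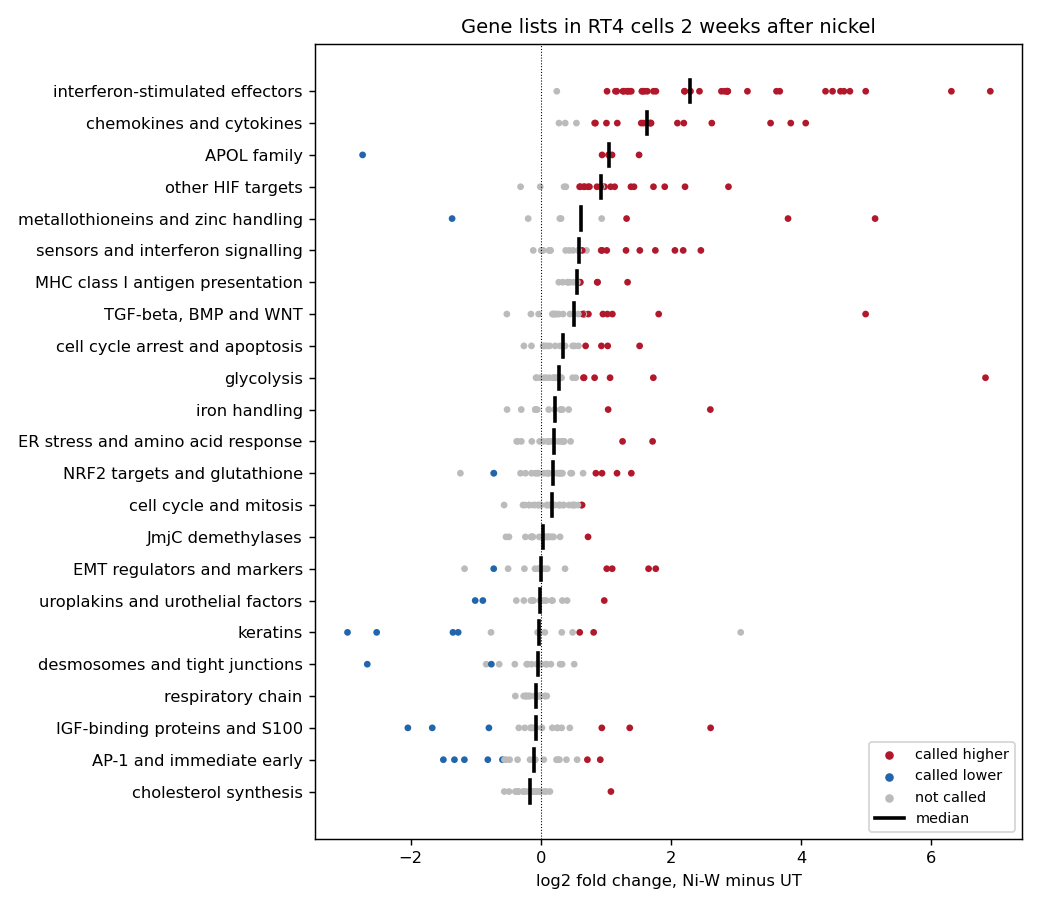
Log2 fold change of Ni-W over UT for every tested member of each gene list with at least 5 tested members, with a black bar at the median of the list. Red points passed the call rule upwards, blue points downwards and grey points not at all. The interferon-stimulated effectors lie furthest to the right with a median of 2.30, and the respiratory chain has no coloured point.

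HIF targets were higher than in UT cells 2 weeks after nickel had been removed, and some of them were lower than under nickel. Of 23 HIF targets outside glycolysis, all of them tested, 18 were higher than in UT cells and none was lower (78.3% higher, beside 5.79% of all tested genes), with a median log2 fold change of 0.92, and 2 were called without the block. STC2, a secreted glycoprotein hormone, was at 1.04 and 1.05 TPM in UT, 25.4 and 24.3 in Ni-E and 8.54 and 7.57 in Ni-W cells (Ni-W minus UT 2.88 ± 0.15, adjusted p = 1.7e-06). Its Ni-W libraries lie between those of the other conditions without overlap, and it was lower than in Ni-E cells by 1.67 (adjusted p = 4.9e-05). TMEM45A, a membrane protein, rose from 3.08 and 2.34 to 20.5 and 8.48 TPM (2.22 ± 0.23), ANGPTL4, an inhibitor of lipoprotein lipase, from 11.2 and 11.2 to 38.2 and 48.7 TPM (1.90 ± 0.15), and ADM, the vasodilator adrenomedullin, from 61.9 and 64.6 to 198 and 238 TPM (1.73 ± 0.11). NDRG1, a marker of hypoxia, stood at 187 and 103.6 TPM in UT and 553 and 273 TPM in Ni-W cells (1.43 ± 0.09).

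Feedback enzymes of oxygen sensing were among the raised genes, with EGLN1 and EGLN3, the prolyl hydroxylases that mark HIF, at 0.98 ± 0.14 and 0.67 ± 0.09. CA9, the carbonic anhydrase used as a marker of hypoxic tumours, had 83.5 and 90.5 TPM in UT, 144 and 160.1 in Ni-E and 80.8 and 98.3 in Ni-W cells, with −0.01 ± 0.12 against UT and −0.80 against Ni-E (adjusted p = 0.0031). VEGFA, the vessel growth factor, was above UT by 0.38 ± 0.10, under the threshold. Against Ni-E cells, 7 of the 23 were lower and none was higher, beside 1.8% and 2.72% of all tested genes. The median of the list against Ni-E was −0.54. The letters ACGTG or GCGTG of the hypoxia response core were in 15 of 19 promoters of the list with an entry, beside 62.1% of all tested genes.

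Glycolysis genes were called in part. Of 23 genes, 6 were higher and none was lower (26.1% higher, beside 5.79% of all tested genes), with a median log2 fold change of 0.28. PFKFB3 and PFKFB4, which make the activator of phosphofructokinase, rose by 1.73 ± 0.14 and 1.06 ± 0.11, from 8.92 and 3.67 to 35.4 and 10.5 TPM and from 18.2 and 16.6 to 40.7 and 34.2 TPM. PDK1, which keeps pyruvate out of the mitochondria, rose by 0.83 ± 0.15 and LDHA, lactate dehydrogenase A, by 0.66 ± 0.09. The glucose transporter gene SLC2A3 had 0 and 2 estimated counts in UT, 128 and 197 in Ni-E and 123 and 125 in Ni-W cells, too few in UT for a fold to be read, and it was the glycolysis gene called without the block. The main glucose transporter SLC2A1 was above UT by 0.54 ± 0.09, under the threshold, and GAPDH by 0.05 ± 0.12. Against Ni-E cells, 7 of the 23 were lower and none was higher, beside 1.8% and 2.72% of all tested genes. PFKFB3 was among the 7, lower by 1.23 (adjusted p = 0.00055).

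**Figure D4:**
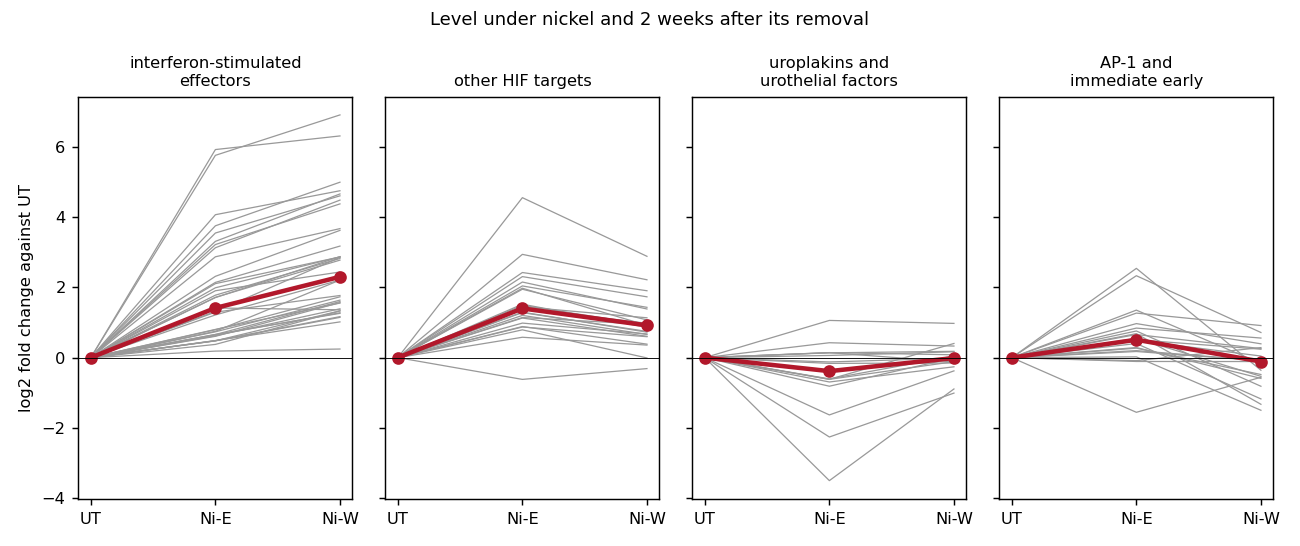
Log2 fold change against UT in Ni-E and Ni-W cells for 4 gene lists, with a thin line per tested gene and a red line through the list medians. The medians go from 1.41 in Ni-E to 2.30 in Ni-W cells for interferon-stimulated effectors and from 1.40 to 0.92 for HIF targets, while those of urothelial factors and immediate early genes are at −0.01 and −0.11 in Ni-W cells.

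Genes that answer to metals were raised in a small group. Metallothioneins are short cysteine-rich proteins that bind zinc and other metals, and their genes respond to the zinc-sensing factor MTF1. MT2A was at 4.14 and 4.96 TPM in UT, 42.3 and 53.8 in Ni-E and 65.4 and 68.8 in Ni-W cells (Ni-W minus UT 3.80 ± 0.25, adjusted p = 7.1e-06). The level after washout was above UT in both pairs and did not pass the test against Ni-E (0.46, adjusted p = 0.21). MT1X had 1 and 0 estimated counts in UT and 12 and 31 in Ni-W cells, and MT1F, at 0.93 ± 0.36, did not pass (adjusted p = 0.14). The metallothionein genes are alike in sequence, so reads that match several of them may be lost or misplaced. The estimated counts of MT2A and MT1X were whole in every library, so no split of reads shows in them. MT1A, MT1E and MT1G were among 7 members listed at 0 in all libraries. SLC30A1, the zinc exporter of the plasma membrane, rose by 1.32 ± 0.17, with Ni-W replicate 2 at 10.3 TPM below UT replicate 1 at 13.4 TPM, and the zinc importer SLC39A10 fell by 1.36 on the log2 scale. Of the 8 tested members, MT2A was the one called without the block.

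The MT2A promoter is printed since its RNA had the largest tested rise of the list with more than a few reads in UT cells. The letters TGCACNC or TGCGCNC on either strand, the core of the element that MTF1 binds, occur 8 times in its window (chr16:56608334-56608633, plus strand, GRCh38.p14, RefSeq) and are in capitals. At least 1 such match is found in 29.3% of all promoters of the table and in 38.5% of those of tested genes, so a single match is common.
MT2A: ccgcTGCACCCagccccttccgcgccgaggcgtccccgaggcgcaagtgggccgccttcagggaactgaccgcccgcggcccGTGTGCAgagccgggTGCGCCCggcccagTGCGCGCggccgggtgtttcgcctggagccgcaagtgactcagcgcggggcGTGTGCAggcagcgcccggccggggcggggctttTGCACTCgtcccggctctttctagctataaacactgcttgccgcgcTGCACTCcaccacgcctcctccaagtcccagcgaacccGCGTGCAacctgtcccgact

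Iron handling genes and NRF2 targets each had 15.4% of tested members called higher, beside 5.79% of all tested genes. Of 13 tested iron genes, 2 were higher. LCN2, the siderophore-binding lipocalin 2, was at 63.6 and 78.7 TPM in UT, 437 and 527 in Ni-E and 380.3 and 522 in Ni-W cells (Ni-W minus UT 2.60 ± 0.12, adjusted p = 1.1e-06). Its difference from Ni-E was −0.14 (adjusted p = 0.61). The iron exporter SLC40A1 rose by 1.03 ± 0.17. Ferritin FTH1 was at 0.12 ± 0.10, the transferrin receptor TFRC at −0.09 ± 0.13 and HMOX1, heme oxygenase 1, at 0.33 ± 0.11, none of them called. Of 26 tested NRF2 and glutathione genes, 4 were higher and 1 was lower. AKR1C1, an aldo-keto reductase, rose from 4.74 and 5.12 to 13.6 and 13.2 TPM (1.39 ± 0.12) and was below its Ni-E level of 30.0 and 30.1 TPM (Ni-W minus Ni-E −1.20, adjusted p = 0.00027). AKR1B10, the cystine transporter SLC7A11 and the thioredoxin reductase TXNRD1 rose by 1.17, 0.94 and 0.85, and GSTM4 fell by 0.72 on the log2 scale. NQO1, a standard NRF2 target, was at 0.05 ± 0.09. None of the calls in either list was made without the block.

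The 12 largest falls were ranked by the same rule, among called genes that averaged 5 CPM or more and whose UT and Ni-W libraries did not overlap. They were those of PAPPA2, RARRES1, KCNH5, PTCHD1, QPRT, DAB1, GLDC, KRT20, APOL4, FAM3B, KRT13 and LXN. PAPPA2, a protease of IGF-binding proteins, was at 6.21 and 3.18 TPM in UT and at 0.62 and 0.22 TPM in Ni-W cells (log2 fold change −3.63 ± 0.21, adjusted p = 3.45e-06). RARRES1, a membrane protein induced by retinoids, fell from 18.0 and 14.9 to 2.47 and 1.58 TPM (−3.40 ± 0.23). QPRT, an enzyme of NAD synthesis, fell from 23.9 and 21.6 to 2.62 and 2.61 TPM (−3.14 ± 0.18). In none of the 12 genes did the UT and Ni-W libraries overlap.

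GLDC, the glycine decarboxylase of the mitochondrial glycine cleavage system, fell from 17.7 and 9.92 to 2.49 and 1.14 TPM (−3.02 ± 0.19, adjusted p = 4.71e-06). LXN, an inhibitor of carboxypeptidases, was the most abundant of the 12, at 126.5 and 133.5 TPM in UT and 23.2 and 24.6 TPM in Ni-W cells (−2.49 ± 0.13). KCNH5, a potassium channel, and PTCHD1, a patched-domain protein, fell by 3.29 and 3.25 on the log2 scale. PAPPA2, KCNH5, PTCHD1, DAB1 and FAM3B were not called without the block, with adjusted p of 0.053 to 0.094.

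For these falls, the Ni-E libraries showed 2 patterns. PAPPA2, KCNH5, PTCHD1, QPRT, GLDC, APOL4, KRT13 and LXN differed between Ni-E and Ni-W cells by −0.56 to 0.23 on the log2 scale, and none passed the test. RARRES1, DAB1, KRT20 and FAM3B were lower still under nickel. FAM3B, a secreted cytokine-like protein, was at 12.6 and 15.7 TPM in UT, 0.10 and 0.06 in Ni-E and 1.58 and 2.71 in Ni-W cells, so that it was above Ni-E by 4.89 ± 0.59 (adjusted p = 0.0011) and below UT by 2.73 ± 0.26. DAB1, an adaptor of reelin signalling, was at 7.07 and 4.64 TPM in UT, 0.12 and 0.01 in Ni-E and 0.92 and 0.56 in Ni-W cells, with 6 and 1 estimated counts in the Ni-E libraries.

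**Figure D5:**
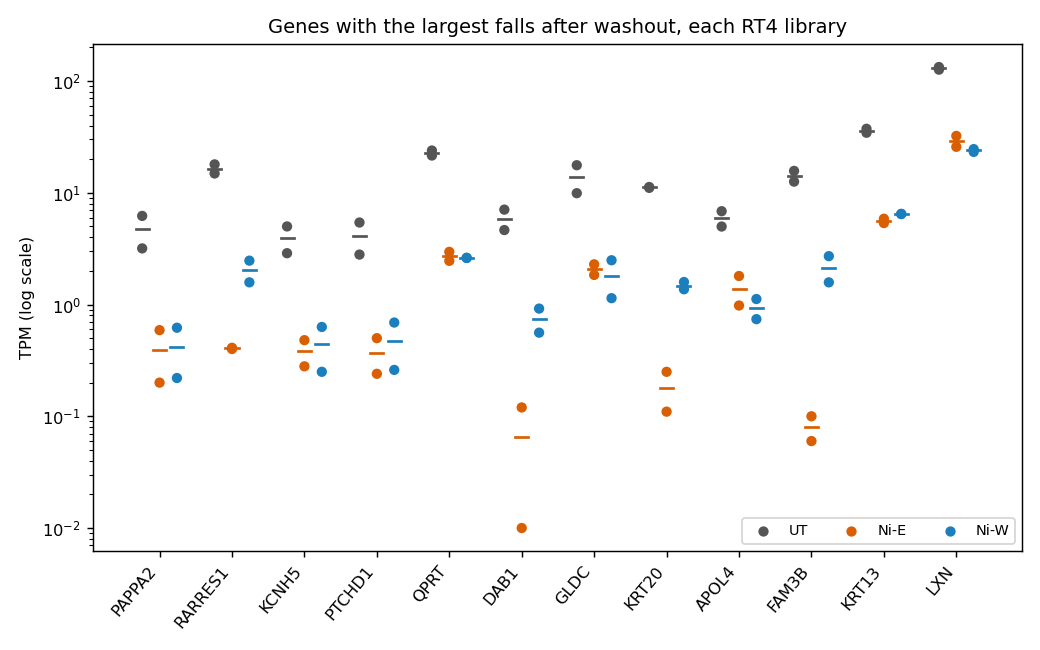
TPM of 12 genes in each RT4 library on a log axis, with 1 point per library and a line at the mean of each condition. These had the largest falls from UT to Ni-W cells among called genes that averaged 5 CPM or more without overlap of the groups. All Ni-W points (blue) lie below all UT points (grey), and for RARRES1, DAB1, KRT20 and FAM3B the Ni-E points (orange) lie lower again.

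Markers of urothelial differentiation were lower for a few genes, and most were not called. Of 13 tested keratins, 4 were lower and 2 higher (30.8% and 15.4%, beside 2.78% and 5.79% of all tested genes). KRT20 was at 11.1 and 11.3 TPM in UT, 0.25 and 0.11 in Ni-E and 1.59 and 1.37 in Ni-W cells (Ni-W minus UT −2.97 ± 0.24, adjusted p = 3.07e-05). KRT13, a keratin of stratified and transitional epithelia, fell from 34.5 and 37.4 to 6.45 and 6.48 TPM (−2.52 ± 0.15). KRT23 and KRT15, a keratin of basal cells, fell by 1.35 and 1.27 on the log2 scale, and the basal keratins KRT17 and KRT5 rose by 0.60 ± 0.12 and 0.81 ± 0.23. The simple-epithelium keratins KRT8, KRT18, KRT19 and KRT7 had log2 fold changes of −0.02, 0.06, −0.05 and 0.32, none called.

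Of the 16 uroplakins and urothelial factors, 2 were lower and 1 was higher (12.5% and 6.25%, beside 2.78% and 5.79% of all tested genes). UPK1A, a uroplakin of the apical plaques, was at 70.6 and 92.5 TPM in UT, 16.1 and 18.5 in Ni-E and 39.6 and 44.4 in Ni-W cells (Ni-W minus UT −1.01 ± 0.13, adjusted p = 0.00053). PSCA, a surface antigen of differentiated urothelium, was at 138 and 170.2 TPM in UT, 11.99 and 15.7 in Ni-E and 76.8 and 95.2 in Ni-W cells (−0.89 ± 0.11). Both stood above Ni-E cells, by 1.25 and 2.61, without reaching the UT libraries. UPK2, UPK1B, UPK3A and FOXA1 were also higher than under nickel, by 1.25, 0.80, 1.02 and 0.65, and their Ni-W minus UT values were −0.38, −0.01, 0.40 and 0.05, none called. KLF4 rose by 0.97 ± 0.14, with Ni-W replicate 2 at 8.23 TPM below UT replicate 1 at 10.3 TPM. Without the block, KRT20 and KRT13 were called and no gene of the urothelial list was.

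Immediate early genes were lower than in never-exposed cells in part of the list. Of 21 tested, 5 were lower and 2 higher (23.8% and 9.52%, beside 2.78% and 5.79% of all tested genes). FOS, the partner of JUN in the AP-1 factor, was at 553 and 550.4 TPM in UT, 587 and 535 in Ni-E and 157 and 249 in Ni-W cells (Ni-W minus UT −1.50 ± 0.19, adjusted p = 0.00062). FOSB fell by 1.33, DUSP1, a phosphatase of MAP kinases, by 1.17, IER3 by 0.81 and JUND by 0.59 on the log2 scale. FOSL1 and EGR1 rose by 0.91 ± 0.17 and 0.72 ± 0.10. The 2 pairs of FOSB differed, at −2.31 for replicate 1 and −0.67 for replicate 2. For JUND and FOSL1 the UT and Ni-W libraries overlapped in CPM, though not in TPM. Under nickel FOS was at 0.02 against UT, not called, and the test between Ni-E and Ni-W cells was passed (−1.52, adjusted p = 0.0016). ATF3, a stress-induced factor, and MYC were raised under nickel by 2.54 and 1.35 and stood at −0.36 ± 0.18 and −0.17 ± 0.10 in Ni-W cells, not called. Against Ni-E cells, 10 of the 21 were lower and 1, SPRY4, was higher, beside 1.8% and 2.72% of all tested genes. None of the 7 calls against UT was made without the block.

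For growth and stress programmes, the share called higher was 6.67% for cell cycle genes, 25% for genes of cell cycle arrest and apoptosis, 10% for ER stress genes, 4.17% for cholesterol genes and 5.56% for JmjC demethylases, beside 5.79% of all tested genes. Of 30 cell cycle genes, TYMS and CCND1 were higher, by 0.63 ± 0.10 and 0.62 ± 0.09, and the proliferation marker MKI67 was at 0.49 ± 0.12, under the threshold. Against Ni-E cells, 8 of the 30 were higher and E2F1 was lower, beside 2.72% of all tested genes higher and 1.8% lower. Among the 8 were the mitotic genes KIF20A (1.09), PLK1 (0.95), AURKA (0.85) and CCNB1 (0.76). Of 16 tested genes of cell cycle arrest and apoptosis, 4 were higher, namely the death receptor FAS (1.52 ± 0.19), ZMAT3 (1.03 ± 0.14), BBC3 (0.93 ± 0.16) and the cell cycle inhibitor CDKN1A (0.69 ± 0.09), while GDF15, raised under nickel by 1.01, was at 0.06 and not called. Of 20 ER stress and amino acid response genes, CHAC1 and VLDLR were higher, by 1.72 ± 0.20 and 1.26 ± 0.16. Of 24 cholesterol genes, STARD4 was higher (1.08 ± 0.21). None of 23 respiratory chain genes was called in either direction, with log2 fold changes from −0.39 to 0.09 and NDUFS3, at an adjusted p of 0.056, the nearest to a call. Of 18 JmjC demethylases, KDM3A, itself a HIF target that removes methyl groups from H3K9, was higher, at 24.6 and 18.5 TPM in UT and 46.4 and 28.5 TPM in Ni-W cells (0.73 ± 0.11, adjusted p = 0.0017). None of the genes in this paragraph was called without the block.

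Signalling and surface genes made up a further set. Of 23 tested TGF-beta, BMP and WNT genes, 9 were higher and none was lower (39.1% higher, beside 5.79% of all tested genes). ROR2, a receptor kinase for WNT5A, was at 0.18 and 0.05 TPM in UT, 5.10 and 4.40 in Ni-E and 3.01 and 2.37 in Ni-W cells (4.99 ± 0.34, adjusted p = 9e-06), with 5 and 3 estimated counts in the UT libraries. It was the member called without the block, and it was below Ni-E by 0.84 (adjusted p = 0.03). WNT5A, its ligand, was at −0.52 ± 0.13 against UT, under the threshold, and at −1.41 against Ni-E. TGFBI, an extracellular matrix protein, rose by 1.81 ± 0.18, the feedback inhibitors SMAD7 and SKIL by 1.10 and 1.02, and TGFB1 by 0.95 ± 0.10. BMP2 rose by 0.73 ± 0.13 and was above Ni-E by 1.00.

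Of 16 tested genes of the epithelial to mesenchymal transition (EMT), 4 rose and 1 fell (25% and 6.25%, beside 5.79% and 2.78% of all tested genes). CDH2, or N-cadherin, rose by 1.77 ± 0.37 from 0.30 and 0.20 to 1.35 and 0.52 TPM, FN1, fibronectin, by 1.66 ± 0.16 and SNAI2 by 1.01 ± 0.13, and MMP2 fell by 0.72 on the log2 scale. CDH1, or E-cadherin, was at −0.03 ± 0.10, TWIST1 and TWIST2 were listed at 0, and VIM had too few reads to be tested. Of 18 desmosome and tight junction genes, CLDN3 fell by 2.67 and TJP3 by 0.76 on the log2 scale (11.1% lower, beside 2.78% of all tested genes). None of the calls in this paragraph was made without the block.

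Among IGF-binding proteins and S100 genes, 3 were higher and 3 lower of 19 tested (15.8% each, beside 5.79% and 2.78% of all tested genes). IGFBP5 was at 133 and 99.6 TPM in UT, 133 and 105.1 in Ni-E and 377 and 250.1 in Ni-W cells (1.37 ± 0.09, adjusted p = 7.1e-06), with no call under nickel and a difference of 1.34 from Ni-E. IGFBP6 rose by 2.61 ± 0.21 and IGFBP3 by 0.94 ± 0.09. The calcium-binding protein S100A4 fell from 253 and 303 to 56.8 and 83.7 TPM (−2.04 ± 0.15), and S100A8 and S100A6 fell by 1.67 and 0.80 on the log2 scale. IGFBP5 was the member called without the block.

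The apolipoprotein L genes, a cluster of related genes of which APOL1 lyses trypanosomes, went in opposite directions. APOL1 was at 246 and 289 TPM in UT and 742 and 834 TPM in Ni-W cells (1.51 ± 0.09, adjusted p = 5.3e-06), and APOL2, APOL3 and APOL6 rose by 1.09, 1.04 and 0.94. APOL4 fell from 6.84 and 4.99 to 1.12 and 0.74 TPM (−2.74 ± 0.23, adjusted p = 3.7e-05). The members are similar in sequence, so reads that match several of them may be lost or misplaced. The estimated counts of the tested members were whole in every library, so no split of reads shows in them. APOL4 was called without the block and the 4 rises were not.

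The other genes with the largest rises were outside the interferon list. KLHDC7B, a kelch-domain protein, rose from 0.27 and 0.31 to 6.93 and 5.52 TPM (4.32 ± 0.23) and was above Ni-E by 1.30. TRABD2B, a metalloprotease that acts on WNT proteins, rose from 0.11 and 0.12 to 3.35 and 2.62 TPM (4.61 ± 0.24), the histamine receptor HRH2 from 0.49 and 0.12 to 4.91 and 3.09 TPM (4.11 ± 0.36) and PPP4R4, a subunit of protein phosphatase 4, from 1.76 and 0.30 to 11.1 and 6.32 TPM (4.08 ± 0.21). For TRABD2B, HRH2 and PPP4R4 the difference from Ni-E was 0.22, −0.21 and −0.58, none of which passed. HRH2 was not called without the block (adjusted p = 0.077).

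Markers of other cell types were low, and a few of them rose. The summed level of 9 fibroblast markers was 1.11 to 1.75 TPM in UT and 2.37 to 5.21 TPM in Ni-W cells, of which COL3A1 took most, at 0.84 and 0.26 TPM in UT and 4.55 and 1.48 TPM in Ni-W cells (2.398 ± 0.24), while COL1A2, DCN and THY1 were at 0. That of 9 leukocyte markers was 11.3 to 13.2 TPM in UT and 21.6 to 23.5 TPM in Ni-W cells, almost all of it from CD68 and ITGAM, which rose by 0.82 ± 0.18 and 0.99 ± 0.15, while PTPRC did not exceed 0.02 TPM in Ni-W cells. The 5 endothelial and 5 lung epithelial markers each summed to less than 2 TPM in every UT and Ni-W library. Whether the rises of COL3A1, CD68 and ITGAM bear on the other results was not tested.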

How the data were processed

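RNA-Seq was measured in 6 RT4 libraries (UT, Ni-E and Ni-W, with 2 replicates per condition), made with a poly(A) kit that does not mark strand, so reads of antisense or overlapping genes cannot be told apart. The authors deposited RSEM estimated counts (expected counts), TPM and FPKM per gene and library, and the FPKM values were read but not tested. The study's methods name STAR alignment to hg19 with RefSeq genes, whereas the submitters' processing notes list GRCh38, so no coordinates of the RNA files are given, and the RSEM version is not given in the sources used here. Of the estimated counts, 97.9% were whole within 0.005, and the rest were rounded.

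Counts were fitted with edgeR 4.0.16 in R 4.3.3 (TMM scaling, quasi-likelihood test, Benjamini-Hochberg adjustment over 14502 genes) in 1 model of all 6 libraries with the replicate number as a block, since Ni-W and UT replicates were to be paired by number. The spread rests on 2 residual and 8.2 prior degrees of freedom. TPM is given per library and fold changes come from the counts. The SE after ± was computed as the size of the log2 fold change divided by the square root of the test's F value. The second library of each condition is titled as a duplicate, and this gave the number. Deviations of same-numbered libraries from their group means correlated with r of 0.657, 0.764 and 0.689 over the 3 pairs of conditions. Data for Ni-W against UT were simulated over 14170 genes from the paired fit, with its replicate effect kept and Ni-E set equal to UT. The paired model recovered 82 of 100 genes changed 2-fold and 98 of 100 changed 4-fold, with 12 wrong calls. Without the block, 0 and 26 were recovered with 0 wrong. Since the replicate effect was built in, this cannot decide whether the pairing holds in the measured data.

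Genes were named by rule: the 12 largest rises and 12 largest falls among called genes averaging 5 CPM or more whose groups did not overlap, and up to 4 called members of each of 27 lists. Members named beyond that were chosen after their values were seen. The comparison, the lists and the members were chosen with earlier results of these data known. Alternatives used DESeq2 1.42.0 and limma 3.58.1 on log2(TPM + 1) or log2(TPM + 0.1), other filters and thresholds, and each library left out. A length correction was added after seeing the data. Promoters came from RefSeq for GRCh38.p14 and were matched by symbol or gene ID. A few members counted in the lists are not reported here by name.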

Additional observations from a re-analysis of the deposited data

Results flagged for a closer look

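The 24 genes named by rule for the largest rises and falls were compared between the end of exposure and the end of washout. Of them, 12 had an effect against UT that differed, by the direct edgeR test of Ni-W against Ni-E with the replicate block. For 8 rises the level went up further after nickel was removed. The Ni-W minus Ni-E log2 difference was 1.15 ± 0.15 (SE) for IFI44L (adjusted p = 0.00163), 1.24 ± 0.13 for IFIT1 (adjusted p = 0.000504) and 0.68 ± 0.12 for IFI6 (adjusted p = 0.00707). It was 1.35 ± 0.20 for SAMD9L, 1.06 ± 0.14 for IFI44, 1.36 ± 0.24 for IFITM1, 1.16 ± 0.20 for RSAD2 and 1.30 ± 0.17 for KLHDC7B, with adjusted p of 0.00188 to 0.00763. In TPM, both Ni-W libraries lay above both Ni-E libraries for each of these 8 genes.

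For 4 falls the level came part of the way back. The Ni-W minus Ni-E difference was 4.89 ± 0.59 for FAM3B (adjusted p = 0.00114), 3.66 ± 0.48 for DAB1 (adjusted p = 0.00163), 3.09 ± 0.45 for KRT20 (adjusted p = 0.00302) and 1.89 ± 0.37 for RARRES1 (adjusted p = 0.0144). All 4 remained below both UT libraries in both Ni-W libraries. DAB1 had 6 and 1 estimated counts in the Ni-E libraries, so the size of its return is poorly fixed. The remaining 12 genes did not pass this test.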

How the results depend on the processing

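The number of calls depended most on the replicate block. Without the replicate block, that is without pairing, 73 genes were higher and 14 lower in place of 840 and 403, and with the length trend of each library removed by loess and no block (added after seeing the data) 216 and 67. With the block, that correction gave 782 and 518. On the TPM scale, limma called 546 higher and 193 lower on log2(TPM + 1), 573 and 185 on log2(TPM + 0.1), and 530 and 207 on log2(TPM + 1) with a mean of at least 0.1 TPM. A 2-fold threshold left 482 and 203, and without a fold threshold 606 were lower. DESeq2 gave 696 and 295. Leaving out 1 library in turn gave 483 to 1206 higher and 181 to 698 lower genes. The low ends came without UT replicate 1 (483 and 197) and without UT replicate 2 (497 and 181), and the high ends without Ni-W replicate 2 (1206 and 698). In these fits the lone library of a condition is assumed to vary like the other conditions. The cause of these shifts was not tested. In fits with 2 replicates of each condition, the 24 genes named by rule for the largest rises and falls were called in the same direction. The exception was the unpaired fit without length correction, where HRH2, PAPPA2, KCNH5, PTCHD1, DAB1 and FAM3B were not called. Of the 37 interferon-stimulated effectors, 36 were called under every setting with the block. Of HIF targets, 11 in place of 18 were called without either UT library. The one reversal was NDUFA1 of the respiratory chain, at 0.07 and not called, which was at −0.17 without Ni-W replicate 2 (adjusted p = 0.311, not called) and at 0.28 without Ni-W replicate 1. Depth limits genes with few reads in UT cells, such as SLC2A3 and MT1X, whose folds are not given.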

Other observations

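The genes below are on none of the lists and were chosen after their values were seen, so they are given as values. C3, the central complement protein, was at 23.2 and 17.9 TPM in UT, 92.5 and 78.7 in Ni-E and 117.2 and 84.5 in Ni-W cells (Ni-W minus UT 2.24 ± 0.10 on the log2 scale, adjusted p = 5.99e-07). The complement protease C1R, at 0.56, was not called. The complement protease C1S and the protease inhibitors SERPINA1 and SLPI rose by 2.46, 2.47 and 2.21, and SLPI was below Ni-E by 1.03. The protease inhibitor SERPINA3 was called higher, at 0.15 and 0.04 TPM in UT and 3.53 and 3.58 TPM in Ni-W cells. At 0.107 and 0.039 CPM, its UT level was too low for a fold to be read. IDO1, which breaks down tryptophan and is induced by interferon-gamma, was at 0.06 and 0.11 TPM in UT and 0.97 and 0.65 in Ni-E cells. It was at 3.38 and 3.39 TPM in Ni-W cells (Ni-W minus UT adjusted p = 0.000108), above Ni-E by 2.09. At 0.054 and 0.118 CPM, its UT level was too low for a fold to be read. Among the guanylate-binding proteins, GBP1 was at 12.1 and 9.10 TPM in UT, 11.1 and 7.68 in Ni-E and 32.7 and 19.8 in Ni-W cells (1.22 ± 0.13, and 1.42 against Ni-E). GBP4 rose by 1.57 and GBP3 by 0.81, and GBP2, at 0.12, was not called. Without the block, C3, C1S, SERPINA1, SERPINA3 and IDO1 were called, and SLPI, GBP1, GBP3 and GBP4 were not.

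Genes of the interferons themselves had almost no reads. Of 22 interferon ligand genes in the files, 17 were at 0 in all 6 libraries, none passed the filter and the highest estimated count in any library was 6, for the type III interferon IFNL1, with 0 and 0 in UT, 3 and 3 in Ni-E and 4 and 6 in Ni-W cells. The 22 genes held 3 estimated counts in all in UT, 9 in Ni-E and 13 in Ni-W libraries. At this depth a low level of ligand RNA was not measurable.

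ACTG2, a smooth muscle actin, had few reads and was at 0.60 and 0.56 TPM in UT, 0.31 and 0.20 in Ni-E and 2.07 and 2.41 in Ni-W cells, above UT by 1.92 and above Ni-E by 3.18, while Ni-E and UT did not differ by the call rule (adjusted p = 0.203). ESR1, the estrogen receptor, and CXCL17, a mucosal chemokine, were below UT by 1.28 and 1.96 and above Ni-E by 1.03 and 2.12. The differences of ACTG2, ESR1 and CXCL17 from UT were not called without the block.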
